A study of Mus musculus with 21 samples.

Results

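The genes described here carry cargo from the endoplasmic reticulum (ER) to the Golgi, in sort-purified IgA+ plasma cells (PCs) of the mouse small intestine. They were 41 listed genes of the COPII coat, the COPI coat, the cargo receptors and the tethers and SNAREs of this route, matched by symbol to the 53801 genes of the count table, and all 41 were found. The rule names genes by function and uses no measured value, but the list was drawn up with earlier results of these data known. By role it held 13 genes of the COPII coat and its assembly, 10 of the COPI coat and its Arf GTPases, 12 cargo receptors, and 6 tethers, SNAREs and other proteins of entry to the Golgi.

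PCs were taken from C57BL/6 mice at ZT0 or ZT12, with Zeitgeber time (ZT) counted in hours from lights on. All mice carried the floxed *Arntl* allele on both chromosomes (*Arntl* fl/fl), which encodes the core clock protein Bmal1. Knockout mice also carried *Mb1*Cre+/-, a Cre in the *Cd79a* locus that is active through the B cell lineage and not only in PCs, while control mice were *Mb1*Cre-/-. Each mouse gave 1 library, with 6 control mice at ZT0, 6 control mice at ZT12, 4 knockout mice at ZT0 and 5 knockout mice at ZT12. Per the study's methods, littermates of both genotypes shared cages, and the labels give no age. Titles decided the genotype of each sample, because for 8 of the 9 knockouts another label field carries the genotype of the controls.

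A PC secretes antibody at a very high rate, and every secreted chain leaves the ER in vesicles. The small GTPase Sar1 recruits the COPII coat to ER exit sites, cargo receptors load soluble proteins into the forming vesicle, and tethers and SNAREs bring about its fusion at the Golgi. The COPI coat runs the route backwards and returns cargo receptors and escaped ER chaperones, the latter held by the KDEL receptors.

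In the labels' control mice *Arntl* lay at 6.83 to 8.36 CPM (counts scaled to a common TMM-normalized library size) at ZT0 and 4.00 to 5.56 at ZT12, against 4.08 to 6.47 and 3.11 to 4.93 in the knockout mice, so the ranges of the genotypes overlapped at ZT12 and did not at ZT0. Such a separation in the lower direction at ZT0 was found for 0.474% of all genes tested. The knockout against control log2 difference of *Arntl* was -0.68 at ZT0 and -0.23 at ZT12. Neither passed edgeR's quasi-likelihood test (Benjamini-Hochberg adjusted p = 0.93 and 0.68). *Cd79a*, whose locus holds the Cre, was lower in all 9 knockout mice (highest 276 CPM) than in all 12 control mice (lowest 386 CPM). Depth was 14471018 to 22785835 counts per library. Immunoglobulin genes took 51.5% to 55.7% of the counts in 17 libraries but 63.6%, 59.5% and 59.1% in control ZT12 replicates 2, 4 and 5, and 59.4% in knockout ZT0 replicate 3. The plasma cell markers were abundant, with a summed level of 280900 CPM or more in every mouse. The sums of 7 other B cell markers, 8 T cell markers and 7 myeloid markers reached at most 29.4, 29.9 and 81.7 CPM. The sum of 11 epithelial markers had medians of 78.7 and 151 CPM in control mice at ZT0 and ZT12 and of 77.8 and 80.8 CPM in knockout mice. It ranged from 52.9 CPM to 740 CPM in control ZT12 replicate 5, and was 437 CPM in knockout ZT12 replicate 5. In bulk libraries fewer cells of a type and less RNA per cell cannot be told apart.

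Nearly the whole route was transcribed in these cells. Of the 41 genes, 40 passed the count filter of 10 counts in total over the 21 libraries. Levels per gene length were compared as length-normalized counts (RPKM), averaged over the 4 groups. *Arf1*, the GTPase that recruits COPI, was highest at 112 RPKM, followed by the cargo receptors *Tmed2* (84.8 RPKM) and *Surf4* (71.5 RPKM) and the COPI subunit *Cope* (58.0 RPKM). The lowest mouse for *Arf1* (98.2 RPKM) lay just under the highest for *Tmed2* (99.6 RPKM), while *Tmed9*, *Sar1a*, *Kdelr1* and *Lman1* lay between 43.5 and 46.1 RPKM with wide overlap among mice. At the other end stood *Sec23a* (6.05 RPKM), the giant Golgi tether *Golgb1* (4.56 RPKM), *Sec24b* (4.11 RPKM) and *Copg2* (1.76 RPKM).

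**Figure D1:**
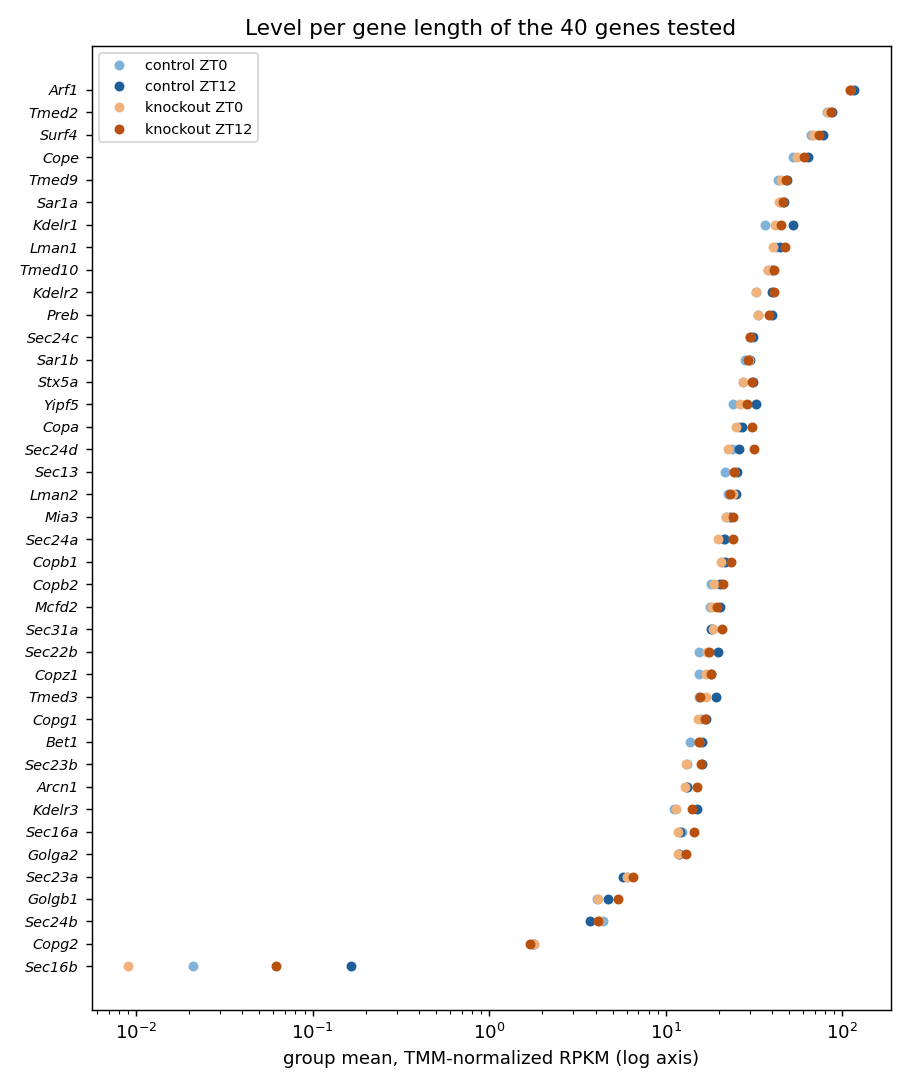
Mean level per gene length (TMM-normalized RPKM, log axis) of the 40 genes tested, with a point for each of the 4 groups. The genes run from *Arf1* at 112 RPKM down to *Sec16b* at 0.064 RPKM, and the groups lie widest apart on this axis for *Sec16b*. *Kdelr1* was at 36.2 RPKM in control mice at ZT0 and 52.5 RPKM at ZT12.

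A pair of genes was at or near 0. *Sec16b*, a paralog of the ER exit site scaffold *Sec16a*, had 118 counts over all mice, was at 0 in 10 mice, and had 64 of its counts in control ZT12 replicate 5, the library with the highest epithelial marker sum. Its fitted changes are not read further on their own. It stays in the counts and medians given for the set, for the COPII class and for the promoter matches. *Arf4*, an Arf GTPase that acts with *Arf1* at the early Golgi, had 3 counts in 2 mice and was at 0 in the other 19, so it was not tested on its own. The 3′ end of *Arf4* shares 5127 bases with *Pde12* on the opposite strand, and *Pde12* was at 0 in all 21 libraries too. How reads in overlapping genes were counted is not given, and its part in these zeros was not tested. Of the other members, *Copa* overlaps *Ncstn* by 267 bases, *Golga2* overlaps *Swi5* by 692 bases and *Kdelr3* overlaps *Ddx17* by 4 bases, each on the opposite strand and each with a partner that had over 10% of the member's counts.

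Where a subunit is encoded by several genes, 1 paralog usually led, with shares given per gene length. *Sec23b* made up 68.4% ± 2.25 (SD, n = 6) of the *Sec23* pair in control mice at ZT0, and *Copg1* 89.7% ± 1.58 of the *Copg* pair. The Sec24 proteins, which select the cargo of COPII, were shared more evenly, with *Sec24c* at 37.5% ± 1.31, *Sec24d* at 29.6% ± 3.11, *Sec24a* at 27.4% ± 3.17 and *Sec24b* at 5.53% ± 0.441. Among the KDEL receptors *Kdelr1* held 45.4% ± 1.59, *Kdelr2* 40.7% ± 1.57 and *Kdelr3* 13.9% ± 1.23. In the p24 family of cargo receptors *Tmed2* held 46.0% ± 1.46, *Tmed9* 24.3% ± 0.903, *Tmed10* 21.1% ± 0.755 and *Tmed3* 8.55% ± 0.619.

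The first comparison asked whether expression in control PCs differed between the times of day. It found 2 of the 40 genes tested (5.0%) higher at ZT12 than at ZT0 and none lower, by edgeR's quasi-likelihood test at a Benjamini-Hochberg adjusted p under 0.05 over all 20256 genes tested. Among all genes 1.73% were called, and 0.948% were called higher. The genes were *Kdelr1*, which retrieves escaped ER chaperones from the Golgi, and *Yipf5*, a membrane protein of ER exit sites and the early Golgi. A further 13 genes, *Sec16b* among them, had an unadjusted p under 0.05 with a higher level at ZT12, where 9.19% of all genes did. *Sec24b* had one with a lower level, where 8.86% of all genes did.

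*Kdelr1* (ENSMUSG00000002778) lies on the plus strand at chr7:45872772-45883732 of GRCm38. In control mice at ZT0 its lowest, median and highest levels were 60.5, 67.5 and 75.1 CPM, and at ZT12 they were 77.0, 90.8 and 145 CPM. Every control mouse at ZT12 was thus above every control mouse at ZT0, and the highest value came from replicate 2, the library with the largest immunoglobulin share. The fitted log2 fold change was 0.54 with a standard error (SE) of 0.11 and an adjusted p of 0.022. The 4 knockout mice at ZT0 had 68.2, 78.3, 89.6 and 74.9 CPM, and the 5 at ZT12 had 82.8, 90.8, 84.3, 78.7 and 84.8 CPM. These groups overlapped, because replicate 3 at ZT0, which also had a raised immunoglobulin share, was above 4 of the 5 mice at ZT12. The log2 fold change in knockout mice was 0.12 (SE 0.13, adjusted p = 0.85).

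*Yipf5* (ENSMUSG00000024487) gave a lowest, median and highest level of 50.2, 54.0 and 62.9 CPM in control mice at ZT0 and of 64.1, 76.4 and 88.5 CPM at ZT12. The groups did not overlap. The log2 fold change was 0.43 (SE 0.09, adjusted p = 0.022). Levels in knockout mice were 61.4, 65.2, 64.5 and 53.1 CPM at the earlier time and 66.3, 77.3, 62.5, 66.5 and 65.0 CPM at the later. They overlapped, and the log2 fold change was 0.15 (SE 0.11, adjusted p = 0.74).

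Both calls stood near the threshold. Without control ZT0 replicate 1, control ZT0 replicate 2 or control ZT12 replicate 4 neither gene passed, with adjusted p of 0.061, 0.066 and 0.062 for *Kdelr1* and 0.066, 0.064 and 0.064 for *Yipf5*. These 3 fits called 0.209%, 0.154% and 0.184% of all genes. Without control ZT0 replicate 3 *Kdelr1* passed (0.048) and *Yipf5* did not (0.050), with 0.442% of all genes called. Without control ZT12 replicate 1, in contrast, *Preb*, *Cope*, *Kdelr2*, *Kdelr3* and *Sec22b* passed as well, giving 7, with 4.7% of all genes called. Without control ZT12 replicate 6 *Cope* joined *Kdelr1* and *Yipf5*, giving 3, with 3.41% of all genes called. Without control ZT12 replicate 2 the log2 fold change of *Kdelr1* was 0.39 (adjusted p = 0.040).

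**Figure D2:**
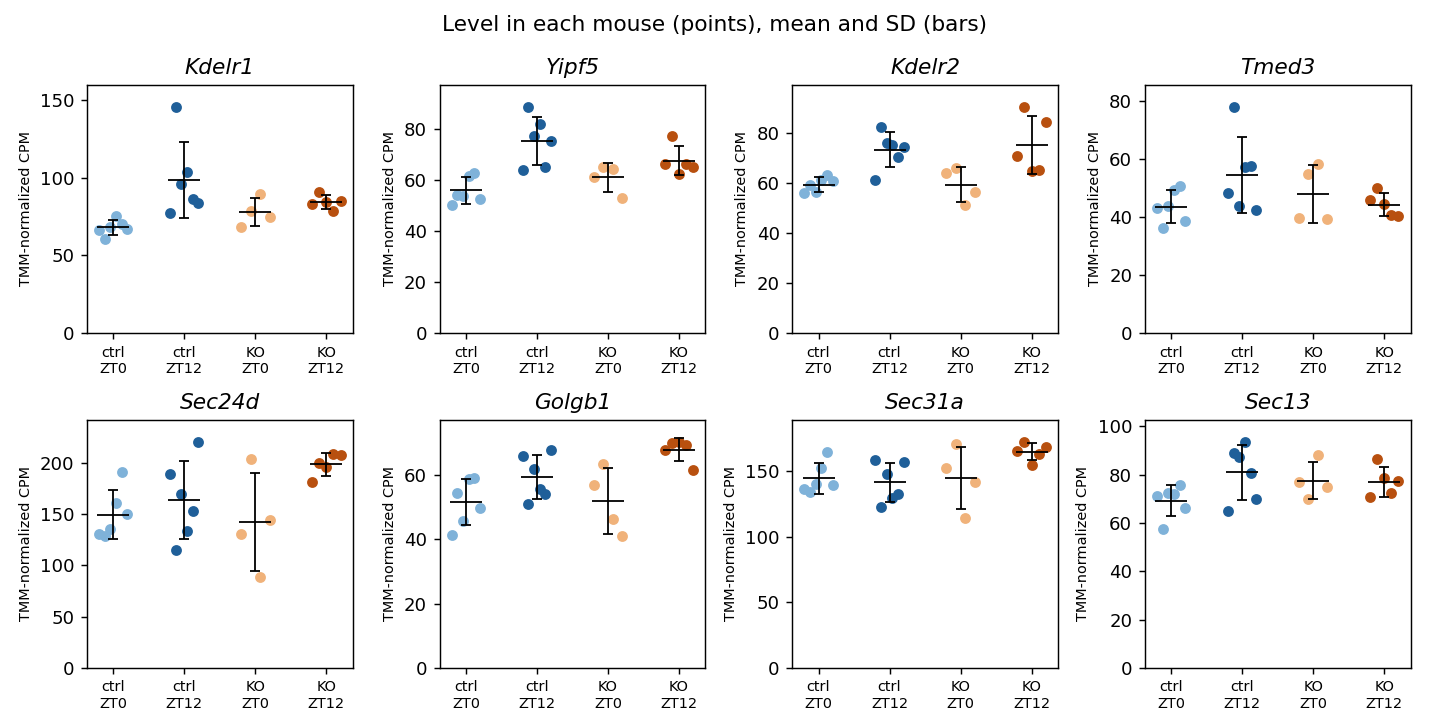
TMM-normalized CPM of 8 genes in each mouse (points), with the group mean and SD (bars), for control (ctrl) and knockout (KO) mice at ZT0 and ZT12. The control groups are apart for *Kdelr1* and *Yipf5*, and *Golgb1* in the knockout mice has 3 of 4 ZT0 mice below all ZT12 mice.

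Beyond these calls most genes of the set leaned to ZT12 with TMM scaling. The log2 fold change was above 0 for 33 of 40 genes (82.5%) in control mice, against 50.6% of all genes, and the median of the set was 0.14 against 0.01 over all genes. This sign depends on the scaling. With library size alone in place of TMM the median of all genes shifted to -0.20 and that of the set to -0.07, with 15 of 40 genes above 0, and 48 genes were called higher and 398 lower over all genes in place of 192 and 158. Relative to the median of all genes, 33 of the 40 genes lay above it under either scaling.

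Of the COPII genes, 8 of 13 had a positive log2 fold change in control mice (4 of 13 with library size alone) and the class median was 0.06, with none called. *Sec23b*, the GTPase activating subunit of the inner coat, had the largest value among those above the lowest levels at 0.28 (SE 0.09, adjusted p = 0.12), followed by *Preb*, the exchange factor that loads Sar1 (0.28, SE 0.09, adjusted p = 0.097) and the outer coat subunit *Sec13* (0.23). Every control mouse at ZT12 (lowest 268 CPM) was above every control mouse at ZT0 (highest 267 CPM) for *Preb*. A complete separation of this kind in the higher direction was found for *Preb*, *Kdelr1* and *Yipf5* and for 0.75% of all genes. The cargo selector *Sec24b* had the lowest value, at -0.24 (adjusted p = 0.22), whereas the outer coat subunit *Sec31a* (-0.03), *Sec16a* (-0.03) and *Sec24a* (-0.03) lay at 0 within their errors.

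In the COPI class 7 of 9 genes were positive (2 of 9 with library size alone) with a median of 0.06 and none was called. *Cope*, a small subunit of the coat, had a log2 fold change of 0.30 (SE 0.09, adjusted p = 0.077) and *Copz1* one of 0.23 (adjusted p = 0.24). The other genes ran from -0.03 for *Copg2* to 0.17 for *Copb2* (unadjusted p = 0.045, adjusted p = 0.27), with *Copg1* at 0.10, *Copa* and *Copb1* at 0.06 and *Arcn1* at -0.02.

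All 12 cargo receptors were positive in control mice with TMM scaling (5 of 12 with library size alone, all 12 above the median of all genes), with a median of 0.17 and 1 called, *Kdelr1*. The remaining KDEL receptors had values of 0.44 for *Kdelr3* (adjusted p = 0.11) and 0.30 for *Kdelr2* (adjusted p = 0.099). *Kdelr2* lay at 55.8, 59.8 and 63.0 CPM (lowest, median, highest) in control mice at ZT0 and at 61.0, 74.7 and 82.1 CPM at ZT12, and 1 mouse at ZT12 fell within the ZT0 range. *Tmed3*, a p24 protein, stood at a lowest, median and highest level of 36.2, 43.4 and 50.6 CPM at ZT0, against 42.3, 52.8 and 77.8 CPM at ZT12, with wide overlap and a log2 fold change of 0.32 (adjusted p = 0.20). The values nearest to 0 were those of *Mia3*, which helps load large cargo such as collagen (0.06), and *Lman1*, the lectin that carries glycoproteins out of the ER (0.08).

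Among the tethers and SNAREs all 6 were positive with TMM scaling (4 of 6 with library size alone), with a median of 0.21 and 1 called, *Yipf5*. The SNAREs *Sec22b*, *Bet1* and *Stx5a*, which form a fusion complex at the early Golgi, had log2 fold changes of 0.35 (adjusted p = 0.10), 0.22 (adjusted p = 0.23) and 0.19 (adjusted p = 0.32). The Golgi matrix tether *Golga2* had 0.01.

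**Figure D3:**
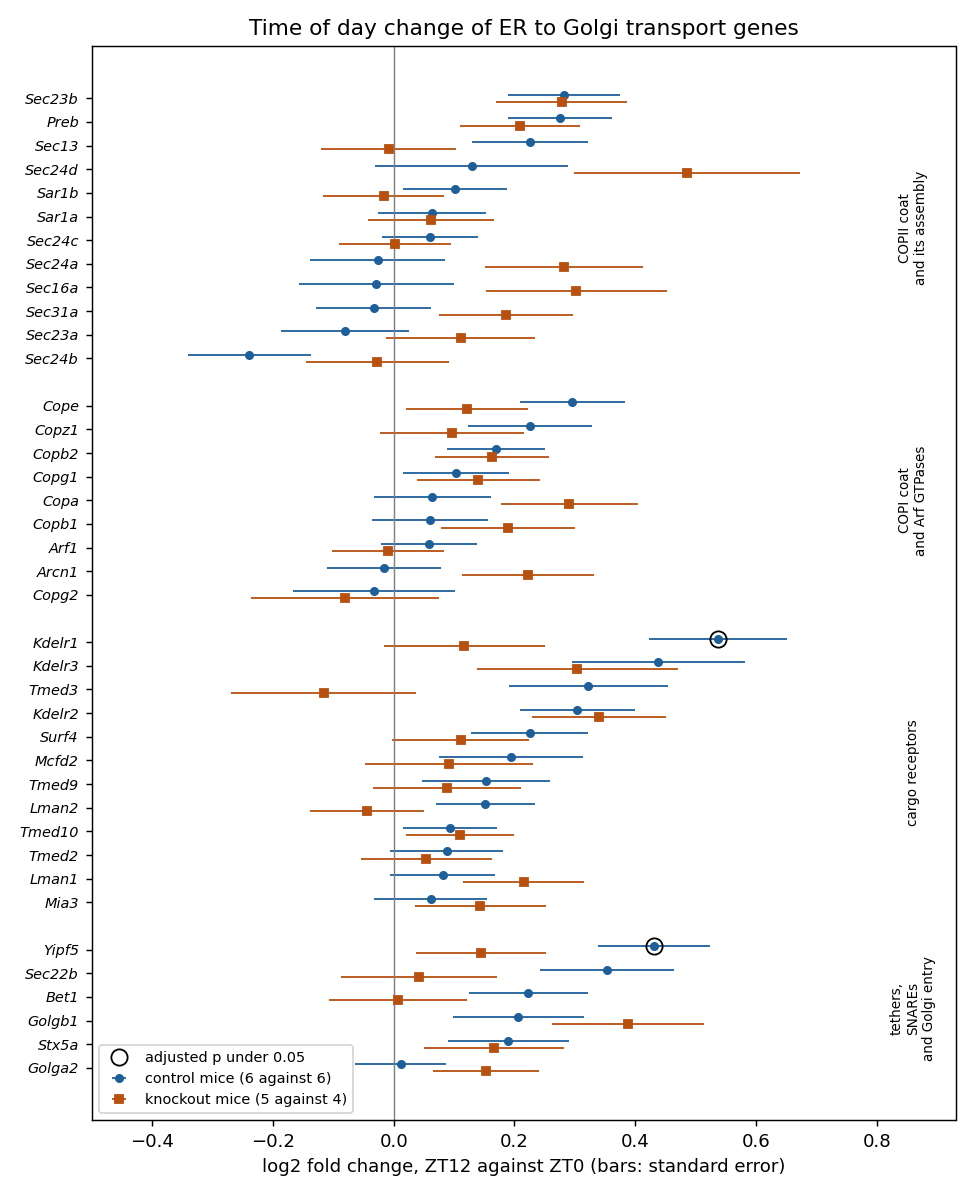
Fitted log2 fold change of ZT12 against ZT0 (bars, standard error) for 39 genes by role, in control (circles) and knockout mice (squares), leaving out *Sec16b*. Open rings mark an adjusted p under 0.05, reached by *Kdelr1* and *Yipf5* in control mice.

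The same comparison in knockout mice called none of the 40 genes, and none of all 20256 genes (0.0%), by edgeR, while DESeq2 called none of the 40 and 47 of all genes. The unadjusted p was under 0.05 with a higher level at ZT12 for 8 genes and with a lower level for none, where 3.91% and 4.09% of all genes had such values. The log2 fold change was above 0 for 33 of 40 genes (50.7% of all genes), with a median of 0.13 against 0.01 over all genes. The 8 genes were *Sec23b* (0.28), *Preb* (0.21), *Sec24a* (0.28), *Sec24d* (0.49), *Copa* (0.29), *Lman1* (0.22), *Kdelr2* (0.34) and *Golgb1* (0.39). Adjusted p-values of these 8 ran from 0.53 to 0.61.

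*Golgb1*, the coiled coil tether giantin, had the smallest p of the set in knockout mice. At ZT0 it was at 56.8, 63.6, 46.2 and 40.9 CPM, and at ZT12 at 67.9, 70.0, 70.2, 69.4 and 61.6 CPM, so that replicate 2 at ZT0 lay above replicate 5 at ZT12 and the other mice were apart. Its log2 fold change was 0.39 (SE 0.13, adjusted p = 0.53), and in control mice 0.21 (SE 0.11, adjusted p = 0.31). *Kdelr2* came next, with levels of 63.9, 65.8, 51.0 and 56.2 CPM, then 70.8, 89.99, 64.8, 64.9 and 84.3 CPM at ZT12, and a log2 fold change of 0.34 (SE 0.11, adjusted p = 0.53). Of the 40 genes only *Golga2* separated every knockout mouse at ZT12 from every knockout mouse at ZT0, at 67.1 CPM or more against 66.9 CPM or less. So did 1.22% of all genes in the higher direction.

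*Sec24d*, a COPII cargo selector, had the largest log2 fold change among the knockout values in the plot of changes by role. At ZT0 it was at 131, 204, 88.4 and 144 CPM, and at ZT12 at 182, 200, 196, 209 and 208 CPM, with overlap. The lowest of these mice, replicate 3 at ZT0, was the library with the raised immunoglobulin share. Its log2 fold change was 0.49 (SE 0.19, adjusted p = 0.60), against 0.13 (SE 0.16) in control mice, and the interaction was 0.36 (adjusted p = 0.59). With the immunoglobulin share as a covariate the control value of *Sec24d* was 0.51 and its interaction -0.03. With control ZT12 replicate 2 and knockout ZT0 replicate 3 left out its knockout value was 0.31, and over all fits with libraries left out it ran from 0.31 to 0.70.

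Whether the time of day difference itself differed between genotypes was tested as an interaction in the same fit. None of the 40 genes passed, nor did any of all genes (0.0%), while DESeq2 called none of the 40 and 4 of all genes. At an unadjusted p under 0.05, reached by 10.8% of all genes, the interaction was negative for *Kdelr1* (-0.42, SE 0.17, unadjusted p = 0.024, adjusted p = 0.44) and *Tmed3* (-0.44, SE 0.20, unadjusted p = 0.039, adjusted p = 0.45). In knockout mice *Tmed3* lay at 39.6, 54.8, 58.5 and 39.5 CPM at ZT0, against 46.0, 50.1, 44.7, 40.6 and 40.4 CPM at ZT12, with overlap. *Yipf5* (-0.29, adjusted p = 0.46) followed. With the immunoglobulin share as a covariate the interaction was -0.10 for *Kdelr1* and -0.04 for *Tmed3*. With control ZT12 replicate 2 and knockout ZT0 replicate 3 left out it was -0.20 for both genes. A call in control mice with none in knockout mice is therefore not shown to differ between the genotypes for either gene.

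Genotypes were also compared at each time. These comparisons share mice with the time of day comparisons. At ZT0 none of the 40 genes was called (0.00987% of all genes, 2 genes) and none had an unadjusted p under 0.05, a value that 4.9% of all genes reached. The smallest p values belonged to *Kdelr1*, with a knockout against control log2 difference of 0.20 (SE 0.13, adjusted p = 0.93), and *Sec13*, with one of 0.16 (adjusted p = 0.93). *Sec13* was at 57.4, 71.7 and 75.9 CPM (lowest, median, highest) in control and at 77.0, 70.1, 88.0 and 75.1 CPM in knockout mice, with overlap.

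At ZT12 none was called (0.0148% of all genes, 3 genes), and 2 had an unadjusted p under 0.05, a value that 8.83% of all genes reached. *Sec31a* was at 122, 140 and 159 CPM (lowest, median, highest) in control mice and at 165, 172, 155, 164 and 168 CPM in knockout mice, so that 4 of the 5 knockout mice were above all control mice. Its knockout against control log2 difference was 0.22 (SE 0.10, adjusted p = 0.56), and that of *Tmed3* was -0.30 (SE 0.14, adjusted p = 0.56). No gene of the set separated the genotypes completely at either time, as 0.499% (higher) and 0.474% (lower) of all genes did at ZT0 and 0.242% and 0.138% at ZT12. The median difference over the set was 0.00 at ZT0 and -0.02 at ZT12.

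The balance within pairs of paralogs does not depend on how a library is scaled, and was compared over 6 pairs and 4 comparisons with exact permutation tests, two-sided and adjusted over these 24 tests. None passed. The pairs of *Arf1* with *Arf4* and of *Sec16a* with *Sec16b*, with 0.5 added because of counts of 0, supply part of the 24 tests. With these numbers of mice and of tests a pair that stood alone could not pass. The smallest possible p, 0.00216 with 6 against 6 mice, becomes 0.0519 after adjustment over 24 tests. The smallest p was for *Sec23a* against *Sec23b* in control mice. Their mean log2 count ratio was -1.50 ± 0.156 (SD) at ZT0 and -1.88 ± 0.222 at ZT12, a difference of -0.38 (exact p = 0.0087, adjusted p = 0.21). Counts of *Sec23a* per count of *Sec23b* were 0.284 to 0.372 at ZT0 and 0.232 to 0.346 at ZT12, where 5 of the 6 mice at ZT0 lay above all 6 at ZT12. The *Kdelr1* to *Kdelr2* ratio was 0.21 higher at ZT12 in control mice (exact p = 0.037, adjusted p = 0.44). In the knockout mice, where 4 against 5 mice allow 126 splits, the *Sec23a* to *Sec23b* difference was -0.16 (exact p = 0.12).

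Time of day values in the set varied with gene length, and did so in opposite directions in the genotypes. Over the 39 genes with a mean of at least 5 CPM the Spearman correlation of length with log2 fold change was -0.47 in control and 0.41 in knockout mice. These genes come from the same libraries, so the values are a description. All 17 genes of up to 4000 bases had positive log2 fold changes in control mice, with a median of 0.23, against 15 of 22 longer genes with a median of 0.06. In knockout mice the medians were 0.09 and 0.18. Over all genes tested the medians were 0.08 and -0.07 in control and -0.02 and 0.03 in knockout mice. With the trend of each library on length removed, 36 of 40 genes were positive in control mice (median 0.19) and 5 were called, *Sec23b*, *Preb* and *Golgb1* with *Kdelr1* and *Yipf5*, with 1.55% of all genes called.

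The library with the largest immunoglobulin share stood at an end of several members' ranges. Control ZT12 replicate 2 was the highest of all 21 for *Kdelr1*, *Yipf5* (88.5 CPM) and *Tmed3* (77.8 CPM), and it was the lowest control mouse for *Sec24d* (115 CPM) and *Sec24a* (163 CPM). Knockout ZT0 replicate 3, with a share of 59.4%, was the lowest of all 21 for *Sec24d* (88.4 CPM) and *Copa* (184 CPM). With the immunoglobulin share as a covariate no gene of the set was called in control mice, nor was any of all genes (0.0%), 36 of 40 were positive with a median of 0.17, and the log2 fold change was 0.25 (adjusted p = 0.54) for *Kdelr1* and 0.33 (adjusted p = 0.41) for *Yipf5*. With control ZT12 replicate 2 and knockout ZT0 replicate 3 both left out, an alternative chosen after seeing the data, *Kdelr1* (0.39, adjusted p = 0.018) and *Yipf5* (0.38, adjusted p = 0.036) remained called.

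**Figure D4:**
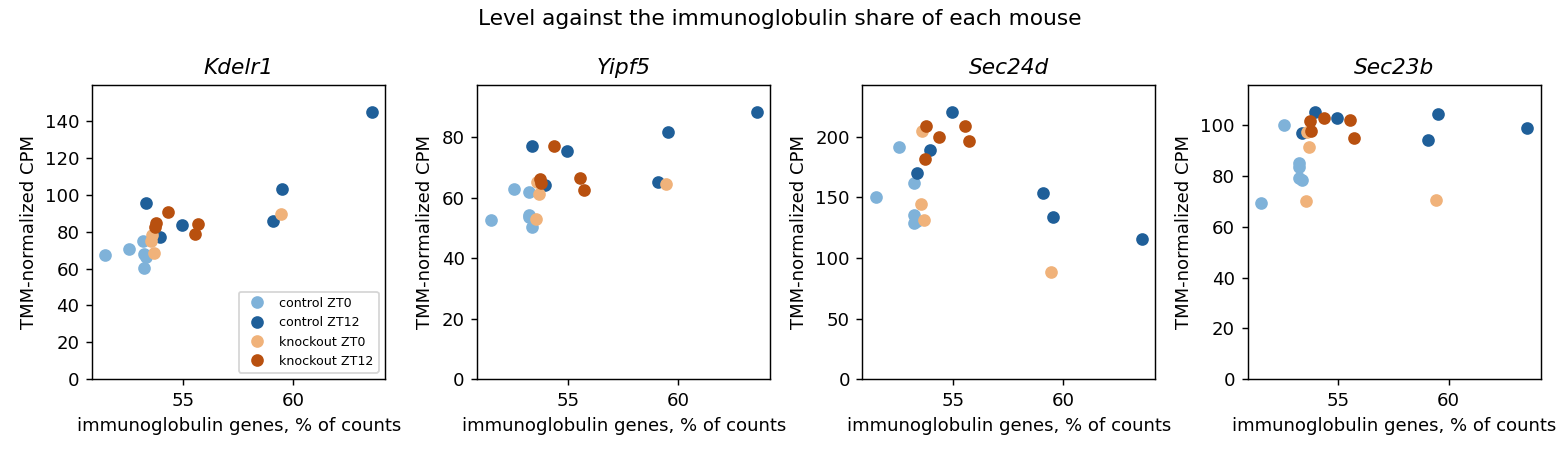
TMM-normalized CPM of 4 genes against the percent of counts in immunoglobulin genes, with a point for each mouse, coloured by group. The mouse at 63.6% has the highest *Kdelr1* and *Yipf5* levels, while *Sec24d* is low in it and lowest in the knockout ZT0 mouse at 59.4%.

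The rest of the pathway was described from 74 further genes, of which 72 were matched and tested. In control mice 1 was called, higher at ZT12, which is 1.39% of them against 1.73% of all genes. It was *Use1*, a SNARE of the retrograde route at the ER (log2 fold change 0.54, SE 0.12, adjusted p = 0.028). *Use1* was at 25.8, 28.4 and 33.2 CPM (lowest, median, highest) at ZT0, against 35.3, 37.3 and 56.3 CPM at ZT12, without overlap (0.75% of all genes). Its highest level was in control ZT12 replicate 2. None of the 72 was called without control ZT0 replicate 1, 2, 3, 5 or 6 or control ZT12 replicate 2 or 4 (0.154% to 0.966% of all genes). The same held with the immunoglobulin share as a covariate (0% of all genes) and on the control groups alone (0.203%). An unadjusted p under 0.05 was reached by 14 in the higher and 4 in the lower direction, where 9.19% and 8.86% of all genes did. Of the 72, 49 were positive (68.1%, against 50.6% of all genes), with a median of 0.09. In knockout mice none was called and 4 had a higher level at an unadjusted p under 0.05, where 3.91% of all genes did. Of the 72, 43 were positive (59.7%, against 50.7% of all genes), with a median of 0.04. The further cargo receptors, such as *Cnih1* and *Ergic3*, were positive in 9 of 13 in control and 3 of 13 in knockout mice, and the difference was not tested.

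Genes that are known to switch on this route were measured alongside it. *Xbp1*, the transcription factor that PCs need to build their secretory apparatus, had a log2 fold change of 0.28 (SE 0.10, adjusted p = 0.14) in control and -0.04 (adjusted p = 0.95) in knockout mice, and its highest level, 3022 CPM, was again in control ZT12 replicate 2. *Creb3* had 0.36 (adjusted p = 0.15) and 0.01, *Creb3l2*, a regulator of COPII genes, 0.18 (adjusted p = 0.32) and 0.09, and *Atf6* -0.25 (adjusted p = 0.39) and 0.06. None of these passed the test in either genotype. *Creb3l1*, also listed as a regulator, was low, at 2.53 to 4.00 CPM at ZT0 and 1.82 to 3.20 CPM at ZT12 in control mice. In knockout mice it was at 1.20 to 3.44 CPM at ZT0 and 1.95 to 4.31 CPM at ZT12, with overlap in each genotype.

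XBP1 and ATF6 bind DNA with the core TGACGTGG, and the clock protein pair of CLOCK and Bmal1 binds CACGTG. RefSeq promoters (GRCm38.p6) of 250 bases before to 50 bases after the start, which were at hand for 35 of the 41 genes in 40 windows, were searched on both strands. TGACGTGG was found for 8 genes, namely *Arf1*, *Copb1*, *Copb2*, *Kdelr3*, *Sec16b*, *Sec23a*, *Sec24d* and *Stx5a*, and in 9 of the 40 windows. Overlapping windows of *Arf1* hold the same site, which is thus counted more than once. The share was 0.676% of 32817 windows of all genes and 0.834% of 15468 windows of genes tested here. The longer element of CCAAT, 9 bases of any kind and CCACG was found in none (0.119% of all windows). CACGTG was found for *Mcfd2*, *Sar1a* and *Tmed10*, in 3 of the 40 windows (7.15% of all windows, 9.17% of those of genes tested). CCACG, which the reverse complement of TGACGTGG contains, was found for 27 genes, in 30 of the 40 windows (32.8% of all windows, 43.8% of those of genes tested). The 6 genes with no window were *Yipf5*, *Tmed2*, *Arcn1*, *Lman1*, *Golgb1* and *Kdelr2*.

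The 150 bases before the RefSeq start are shown for *Kdelr1*, called in control mice and without a match, and for 4 genes with a match, the receptor *Kdelr3*, the COPII gene *Sec24d* and the COPI genes *Copb1* and *Arf1*. For all but *Kdelr3* this start lies inside the gene's span in the count table, so the stretch runs into that span. The marked letters of *Sec24d*, *Copb1* and *Arf1* lie within it. Each is written 5′ to 3′ along the gene, and capitals mark TGACGTGG or its reverse complement.
*Kdelr1*, chr7:45872690-45872839, plus strand: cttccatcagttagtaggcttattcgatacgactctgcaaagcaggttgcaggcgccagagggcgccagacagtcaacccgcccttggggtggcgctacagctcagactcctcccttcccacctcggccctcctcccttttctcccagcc
*Kdelr3*, chr15:79516258-79516407, plus strand: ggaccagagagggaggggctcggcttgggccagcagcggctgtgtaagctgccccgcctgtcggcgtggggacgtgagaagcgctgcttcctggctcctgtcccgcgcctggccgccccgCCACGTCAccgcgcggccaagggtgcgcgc
*Sec24d*, chr3:123267346-123267495, plus strand: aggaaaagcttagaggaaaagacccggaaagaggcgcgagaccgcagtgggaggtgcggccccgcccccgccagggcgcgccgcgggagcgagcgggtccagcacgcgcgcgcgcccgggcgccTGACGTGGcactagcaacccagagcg
*Copb1*, chr7:114254681-114254830, minus strand: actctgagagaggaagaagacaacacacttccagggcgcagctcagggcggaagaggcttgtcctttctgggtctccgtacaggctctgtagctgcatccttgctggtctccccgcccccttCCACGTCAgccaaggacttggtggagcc
*Arf1*, chr11:59228163-59228312, minus strand: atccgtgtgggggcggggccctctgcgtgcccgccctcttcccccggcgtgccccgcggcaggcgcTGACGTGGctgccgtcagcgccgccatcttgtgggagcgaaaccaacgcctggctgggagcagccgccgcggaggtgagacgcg

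Time of day values were set beside the matches. *Sec16b*, which was at or near 0 counts, is among the 8 genes with TGACGTGG, with fitted values of 2.86 in control and 2.70 in knockout mice. The 8 genes had a median log2 fold change of 0.15 in control and 0.18 in knockout mice, and the 26 tested genes with a window and no match had 0.13 and 0.10. A match says only that these letters are in the window, and the difference was not tested.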

How the data were processed

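RNA was isolated from sort-purified CD138+ IgA+ PCs of the small intestinal lamina propria of 21 mice, and poly-A libraries were sequenced as paired reads. The values deposited by the authors are raw whole-number counts for each gene, not normalized. The aligner, the counter, the strand setting and the genome build are not given in the sources used here. The submitters' processing notes name DESeq2. The coordinates of 52105 of 53706 gene IDs found in GENCODE M21 (GRCm38), and of 38 of the 41 genes of the set, were the same there. Replicates are separate mice.

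Genes needed a total of 10 counts to enter. A mean per group was fitted with edgeR 4.0.16 (R 4.3.3; TMM scaling, robust quasi-likelihood test), and the Benjamini-Hochberg adjustment ran over every gene that entered. CPM and RPKM values carry the TMM factors, and RPKM uses the deposited gene length. Paralog ratios were compared by exact permutation over mice, with 0.5 added to the counts of pairs holding a 0. Alternatives were DESeq2 1.42.0, DESeq2 size factors, library size only, immunoglobulin genes removed, no filter, filterByExpr, a threshold of 0.01, each comparison on its own groups, a replicate block, 2 covariates, removal of a gene length trend and the omission of single libraries. The script was first tested on simulated data.

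The members and lists were chosen with earlier results of these data known. Values in every mouse were given for genes called in any comparison and, per comparison, for the 2 of lowest p. *Preb*, *Golga2*, *Sec24d*, *Sec24a*, *Copa*, *Use1* and the overlapping genes were described in more detail after their values were seen. No other columns of values were present (0). Reads carry no molecular identifiers, so counting error is a lower bound on the error.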

Additional observations from a re-analysis of the deposited data

Results flagged for a closer look

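Of 28 groups of 4 to 6 mice examined, 2 held a mouse whose gap to its nearest neighbour was large for the range of its group (Dixon's test at the 95% level), where chance gives about 1 in 20. *Golgb1* was lowest in knockout ZT12 replicate 5, at 61.64 CPM, while the other 4 mice of that group lay between 67.9 and 70.2 CPM. *Yipf5* was highest in knockout ZT12 replicate 2, at 77.27 CPM, while the other 4 lay between 62.5 and 66.5 CPM. Knockout ZT12 replicate 5 also had the higher epithelial marker sum given for that group, and its part in the *Golgb1* value was not tested.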

How the results depend on the processing

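In control mice 2 genes of the set and 1.73% of all genes were called. With DESeq2 there were 8 (*Sec23b*, *Preb*, *Cope*, *Kdelr1*, *Kdelr2*, *Kdelr3*, *Sec22b* and *Yipf5*), with 1052 genes called in all, 8.5% of those tested. With filterByExpr there were 4 (3.35% of all genes called), and with the gene length trend removed 5 (1.55%). With library size only, a threshold of 0.01, a fit on the control groups alone (38 genes called in all) and the immunoglobulin share as a covariate there were 0. With each library left out in turn the number ran from 0 to 7, and that over all genes from 31 to 944. DESeq2 size factors, removal of immunoglobulin genes, no filter and the epithelial marker level as a covariate gave 2. The replicate number as a block also gave 2 (183 genes in all) and changed no call of the set. The correlations of the deviations of mice with the same number ran from -0.31 to 0.35. They do not settle whether such mice shared more than a number. In the other comparisons the set had 0 calls under every alternative run. The 24 paralog tests gave 0 with a pseudocount of 0.5 and with each of the 21 libraries left out, where no pair alone could pass. The log2 fold change of *Tmed3* in control mice turned from 0.32 to -0.031 with the immunoglobulin share as a covariate. Values near 0 also changed sign. *Sec31a* in control mice (-0.03) became 0.17 with that covariate, 0.077 with the length trend removed, 0.0017 with control ZT12 replicate 2 and knockout ZT0 replicate 3 left out, and -0.067 to 0.0072 with single libraries left out. *Sec13* in knockout mice (-0.01) became 0.0097 with that covariate, 0.053 with both libraries left out, and -0.068 to 0.058 with single libraries left out. The cause of these was not tested. For *Kdelr1* the adjusted p ran from 0.00079 to 0.54 over the alternatives and for *Yipf5* from 0.00037 to 0.41.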
